A study of Mus musculus with 12 samples.

Results

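Round spermatids of SV129 mice were digested with 0.5, 1 or 2 units (U) of micrococcal nuclease (MNase), and the nucleosome positions called at the 3 amounts were compared. These are 6 of the 12 samples of the series, 2 for each amount, and 3 of its 6 groups; the other samples come from an earlier, meiotic fraction and were not used here. Each amount has 1 list of nucleosome calls, which the authors made from both of its samples together. Testes came from males of 8 to 12 weeks, 11 mice for each collection. Cells were separated by STAPUT, sedimentation through an albumin gradient at unit gravity, to a stated purity of at least 85%, and were digested for 7.5 min at 37 °C. Round spermatids were digested with more cells than the meiotic fraction at the same amount of enzyme. The labels name no mutation or drug in these samples. The pooling of mice and of samples leaves no replicate error for any value below. Nucleosome calls do not measure expression, so the labelled cell type could not be checked against marker genes.

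MNase cuts the linker DNA between nucleosomes and then digests the exposed ends, so the DNA wrapped around histones survives longest. Light digestion releases nucleosomes first from open chromatin, heavier digestion releases compacted ones, and long exposure also destroys nucleosomes that are wrapped loosely. A round spermatid is the haploid cell that follows meiosis. Its nucleus still holds nucleosomes, which are later replaced by the transition proteins Tnp1 and Tnp2 and then by the protamines Prm1 and Prm2. The title of the series names the histone acetyltransferase Gcn5, which is encoded by Kat2a.

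The number of nucleosome calls fell steeply as MNase rose. The lists held 179133 calls at 0.5 U, then 41655 at 1 U and 27101 at 2 U. The 2 U list thus had 15.1% of the size of the 0.5 U list. Calls of 1 list often overlap, so several can cover the same nucleosome. Joined where they overlap, they give 114817 positions at 0.5 U, 25350 at 1 U and 15845 at 2 U. Counts below are of single calls unless said to be merged. Every call is 140 bp wide and carries a p-value that matches the upper tail of a Poisson distribution with at least 6 reads in a window, here called implied reads. The mean coverage implied by these tails was 0.696, 0.472 and 0.409 reads per window at 0.5, 1 and 2 U, so enzyme amount and depth moved together and their parts in any result below cannot be told apart. Calls at the minimum of 6 implied reads made up 69.5%, 68.1% and 66.0% of the 3 lists. The number of calls with 10 or more implied reads fell less, from 5998 at 0.5 U to 3471 at 1 U and 3058 at 2 U.

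The order of the list sizes depends on the threshold used for calls. The authors' threshold was 6 implied reads in all 3 lists, which at lower coverage is a stricter p-value. When all lists were held to the largest p-value found in the 2 U list, 16836 calls remained at 0.5 U, then 13277 at 1 U and 27101 at 2 U, and the 2 U list was 161% of the 0.5 U list. That common limit keeps calls of 8 or more implied reads at 0.5 U, 7 or more at 1 U and 6 or more at 2 U. Because counts are whole numbers, it is stricter at 0.5 U and 1 U than at 2 U, and the lists are not exactly matched. With 7 or more at 0.5 U, which is looser than the 2 U limit, 54685 calls remain and the order does not turn. The common limit was applied to the shares, gene groups and named genes below. It was not applied to the classes of gene length, single bins, promoter windows or chromosome ends. All intervals in the text are 95% intervals for counting error alone, and they are too narrow because overlapping calls share reads.

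Calls that came back at more than 1 amount directly upstream of a gene start were rare. Of 21263 promoter windows of protein-coding genes, from 250 bases before to 50 after the start, 316 held a call midpoint at 0.5 U, 120 at 1 U and 96 at 2 U. Only 23 windows held one at 2 or more amounts, and only that of Sp110 at all 3. The upstream 250 bases of 4 of these are shown because they are the plainest cases of a promoter nucleosome that was called at all amounts, or at 1 U and 2 U and not at 0.5 U. They are RefSeq sequence of GRCm38.p6 in the direction of transcription, and capitals mark bases covered by calls at every amount at which that window was called.
Sp110: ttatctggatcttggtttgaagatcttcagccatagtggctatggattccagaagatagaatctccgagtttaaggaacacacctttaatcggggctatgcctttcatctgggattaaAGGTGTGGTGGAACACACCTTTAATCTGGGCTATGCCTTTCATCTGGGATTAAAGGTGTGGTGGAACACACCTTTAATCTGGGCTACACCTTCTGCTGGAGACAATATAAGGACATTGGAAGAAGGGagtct
Ccdc103: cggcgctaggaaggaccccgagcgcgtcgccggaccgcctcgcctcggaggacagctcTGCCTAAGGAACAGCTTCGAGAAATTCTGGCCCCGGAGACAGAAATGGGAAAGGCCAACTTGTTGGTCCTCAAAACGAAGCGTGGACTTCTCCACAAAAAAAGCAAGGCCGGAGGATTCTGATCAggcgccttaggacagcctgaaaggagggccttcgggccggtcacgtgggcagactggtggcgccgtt
Cnpy4: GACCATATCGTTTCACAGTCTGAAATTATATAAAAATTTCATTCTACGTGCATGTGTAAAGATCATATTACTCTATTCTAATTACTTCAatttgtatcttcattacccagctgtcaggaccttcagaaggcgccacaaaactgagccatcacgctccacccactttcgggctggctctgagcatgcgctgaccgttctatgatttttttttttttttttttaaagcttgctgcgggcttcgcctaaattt
Naip6: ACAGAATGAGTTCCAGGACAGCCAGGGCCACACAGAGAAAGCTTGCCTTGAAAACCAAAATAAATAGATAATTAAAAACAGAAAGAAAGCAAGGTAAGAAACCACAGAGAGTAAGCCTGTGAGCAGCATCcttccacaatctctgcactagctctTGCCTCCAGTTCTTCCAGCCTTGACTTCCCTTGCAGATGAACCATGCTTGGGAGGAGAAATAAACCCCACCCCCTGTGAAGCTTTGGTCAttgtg
The Sp110 stretch is chr1:85603892-85604141 on the minus strand. It lies before an internal start and within the gene, which spans chr1:85570735-85610850. Its window held 2 calls at 0.5 U, then 2 at 1 U and 1 at 2 U, and the 127 bases in capitals were covered at all 3 amounts. Sp110 encodes a nuclear body protein of the Sp100 family and lies among repeated family members. The other stretches had no call midpoint at 0.5 U and at least 1 at both higher amounts. That of Ccdc103, a gene needed for the assembly of ciliary dynein arms, is chr11:102880974-102881223 on the plus strand, with 125 bases in capitals, 21 CpG dinucleotides and a GC content of 60.8%. That of Cnpy4 is chr5:138187285-138187534 on the plus strand; it is shared head to head with Taf6, which encodes a subunit of TFIID, the general transcription factor that binds core promoters. The Cnpy4 stretch held 2 calls at 1 U and 1 at 2 U, with 89 bases in capitals and a GC content of 39.6%. The stretch of Naip6, a receptor gene of innate immunity with close copies beside it, is chr13:100316617-100316866 on the minus strand and contains no CpG. It held 3 calls at 1 U and 5 at 2 U, with 220 bases in capitals. The highest number of implied reads of a call was 9 at Sp110, 8 at Ccdc103, 7 at Cnpy4 and 8 at Naip6. Calls of 0.5 U lay within 1000 bp of a Naip6 start but outside these 300 bases.

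Gene-poor regions lost calls fastest as MNase rose. The autosomes were divided into 1 Mb bins by the number of protein-coding genes starting in them, leaving out dense bins, which are 10 kb bins with more than 20 calls at any amount and are described further on. A gene was counted in the bin of its lowest coordinate, whatever its strand. A bin with no start can therefore lie inside a long gene. In the 286 bins with no gene start, the density of calls relative to the autosomal mean was 1.26 at 0.5 U, then 1.01 at 1 U and 0.915 at 2 U. In the 922 bins with 1 to 5 starts it was 1.09, 0.986 and 0.947. The order turned in richer regions. In the 958 bins with 6 to 20 starts it was 0.902, 1.05 and 1.10, and in the 247 bins with over 20 starts it was 0.751, 0.845 and 0.899. At 0.5 U the density thus fell with every step of gene content, while at 2 U it was highest in bins of 6 to 20 starts.

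**Figure D1:**
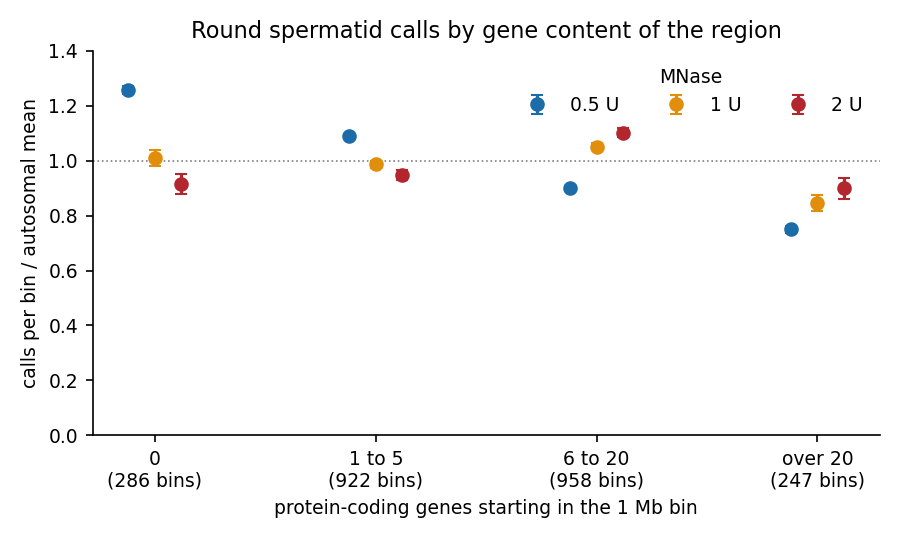
Calls per 1 Mb bin over the autosomal mean (y axis) for bins grouped by protein-coding gene starts (x axis), at 0.5, 1 and 2 U MNase, without dense bins; bars are exact binomial 95% intervals of each list's share. The 0.5 U points descend from 1.26 to 0.751 from left to right, and the 2 U points stay between 0.899 and 1.10.

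In bins with no start, 24444 calls at 0.5 U became 3994 at 1 U and 2210 at 2 U, which is 9.04% of the 0.5 U number. In bins with over 20 starts, 12619 calls became 2885 and 1874, or 14.9%. As a share of the list, bins with no start changed by a log2 ratio of -0.46 from 0.5 U to 2 U (interval -0.52 to -0.40). The richest bins changed by 0.26 (0.19 to 0.33). The change came in both steps. From 1 U to 2 U the log2 ratio was -0.14 (-0.21 to -0.07) in bins with no start and 0.09 (0.01 to 0.17) in the richest. Both directions held at the common p limit, where the log2 ratios were -0.38 and 0.35.

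The values of single bins spread more widely than the class means, but each rests on few calls at 2 U. Of 2393 bins with at least 20 calls at 0.5 U, 8.94% had a share at least 2-fold higher at 2 U and 17.7% one at least 2-fold lower. Bins were kept by their 0.5 U calls alone, and the median number of calls at 2 U was 7 or 8 in every class of bins. Counting error of single bins was not separated from these shares. Among bins with no start 1.06% were higher and 32.9% lower, whereas among bins with over 20 starts 17.7% were higher and 13.2% lower. The following bins were picked after their values were seen. The bin with the largest drop in share was chr6:130000001-131000000, which holds the Klra cluster of natural killer cell receptors (Klra1, Klra3, Klra4 and others). It had 295 calls at 0.5 U, then 58 at 1 U and 17 at 2 U. The bin chr2:87000001-88000000, with 49 gene starts, many of them olfactory receptors, had 116, 17 and 2 calls. Gene-rich bins were therefore not all alike. Neuronal genes lay in other falling bins: chr18:45000001-46000000 with the potassium channel gene Kcnn2 had 117, 18 and 2 calls, and chr6:27000001-28000000 with the glutamate receptor gene Grm8 had 104, 20 and 1. A bin without protein-coding genes, chr1:147000001-148000000, had 100, 12 and 1.

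The bins that gained most in share still lost calls in number. The bin chr8:20000001-21000000, with the beta-defensin gene Defb33, had 307 calls at 0.5 U, then 145 at 1 U and 135 at 2 U outside its dense bins. The bin chr5:15000001-16000000, with the sperm-associated Speer4c and Speer4d, had 270, 96 and 71 calls. The bin chr17:30000001-31000000, with Glo1, Btbd9 and the outer dynein arm gene Dnah8, had 204, 64 and 53. The bin chr1:85000001-86000000, with Sp100, Sp110 and Sp140, had 180, 55 and 49.

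Close to gene starts, calls became relatively more frequent with each step of MNase. Within 1000 bp of a protein-coding start lay 2265 calls at 0.5 U (1.43% of calls outside dense bins), then 657 at 1 U (2.05%) and 431 at 2 U (2.20%). The log2 ratio of shares between 2 U and 0.5 U was 0.61 (0.47 to 0.76), and within 500 bp it was 0.97 (0.79 to 1.15). In terms of genes, 6.67% of 21887 protein-coding genes had a call within 1000 bp of a start at 0.5 U, 1.95% at 1 U and 1.49% at 2 U. These are 1459, 427 and 326 genes, so the number of genes with a start call fell while the share of calls near starts rose. Starts were given for 17492 of the 21887 genes. A gene without a given start counts as one without a call, so the percentages of genes are too low.

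The gain was narrow and lay on both sides of the start. Profiles used the outermost start of each gene and the mean density of autosomal calls as the unit. Over the 300 bp upstream, the relative density was 1.33 at 0.5 U (1.21 to 1.46), then 2.34 at 1 U (1.99 to 2.73) and 2.34 at 2 U (1.90 to 2.85). Over the first 300 bp downstream it was 1.01 at 0.5 U (0.905 to 1.12), then 1.89 at 1 U (1.57 to 2.24) and 2.75 at 2 U (2.27 to 3.30). Between 1001 and 2000 bp upstream it was 0.946, 0.987 and 0.910, and the 3 intervals overlap. The upstream side was thus at its 2 U level already at 1 U, while the downstream values at 0.5 U and at 2 U were separated from the 1 U value, the latter with intervals that just do not overlap.

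**Figure D2:**
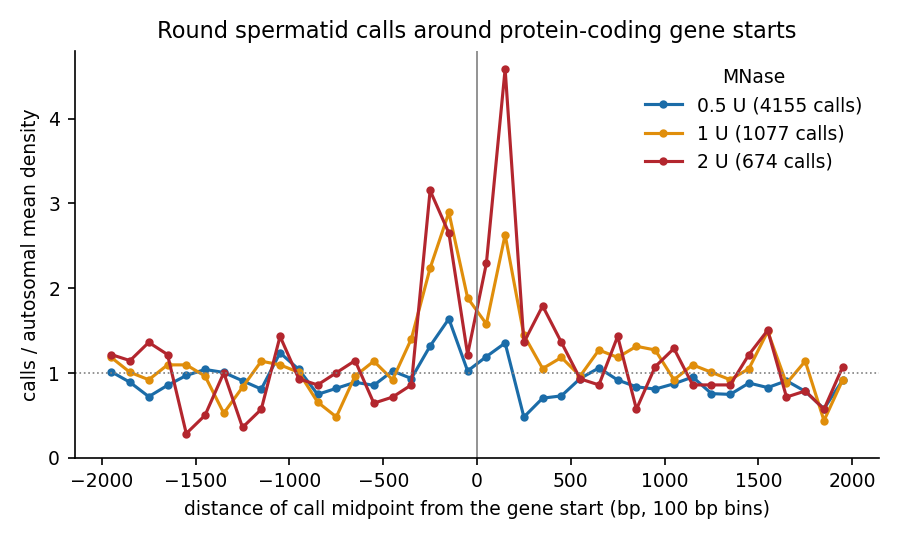
Density of call midpoints in 100 bp bins (y axis, relative to the autosomal mean, dense bins left out) against distance from the protein-coding gene start in the direction of transcription (x axis), at 0.5, 1 and 2 U. The curves lie near 1 away from the start, and those of 1 U and 2 U rise within 300 bp on both sides, where the mean over 300 bp reaches 2.34 upstream and 2.75 downstream at 2 U.

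This difference was smaller when the lists were held to the common p limit. At the common p limit the relative density within 300 bp of starts was 1.95 at 0.5 U (1.53 to 2.46), then 2.36 at 1 U (1.84 to 2.98) and 2.54 at 2 U (2.21 to 2.91), and the log2 ratio for 1000 bp fell to 0.17 (-0.09 to 0.42), an interval that includes 0. With 7 or more implied reads in every list, the 300 bp values were 1.42 (1.25 to 1.61), 2.36 and 3.38 (2.56 to 4.37).

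In 11 of the 17492 genes with a given start, calls within 1000 bp of it were found at both 1 U and 2 U and not at 0.5 U. A start call was found in 427 genes at 1 U and in 326 at 2 U. Whether the 11 exceed the overlap of unrelated placement was not tested. The 11 genes are Atp8b2, Gbp2, Taf6, Cnpy4, Dmkn, Upf3a, Hmgxb4, Vat1l, Sesn1, Ccdc103 and Tll2. Gbp2, an interferon-induced guanylate-binding protein gene, had 2 start calls at 1 U and 3 at 2 U. Upf3a, whose product belongs to the nonsense-mediated decay pathway, had 2 and 2, and the stress-response gene Sesn1 had 1 and 1. Each of these rests on 1 to 3 calls at an amount.

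Only 10 of the 17492 genes with a given start had start calls at all 3 amounts. Gm32584 led with 11 at 0.5 U, 11 at 1 U and 9 at 2 U, followed by Gm36079 with 3, 8 and 7 and Naip6 with 8, 3 and 5. Zfp600, a zinc finger gene, had 3, 3 and 3, and Ndufc2, which encodes a subunit of respiratory complex I, had 3, 3 and 1. Sp110 had 5, 3 and 2. The others were Gm52481, Gm8126, Zfp985 and Speer4c, with 1 to 5 start calls at an amount. Several of these, such as Naip6, Speer4c and the Zfp genes, have close copies in the genome, and the placement of their reads is uncertain.

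Promoters with a call did not differ clearly in base composition between amounts. The median GC content of the 300-base windows was 54.0% for those with a call at 0.5 U, 54.2% at 1 U and 59.8% at 2 U, beside 56.3% for all windows. A ratio of observed to expected CpG over 0.6 was found in 47.2% (41.5 to 52.8) at 0.5 U, 46.7% (37.5 to 56.0) at 1 U and 56.3% (45.7 to 66.4) at 2 U, and the intervals overlap one another and include the 47.6% of all windows. By class of this ratio, windows called at 2 U were 18.75% of the 0.5 U number under 0.2 and 21.7% from 0.2 to 0.4. The value was 51.9% from 0.4 to 0.6, 32.9% from 0.6 to 0.8 and 39.2% at 0.8 and over. The log2 intervals of these classes overlap, among them -3.21 to -1.62 under 0.2 and -1.95 to -0.75 at 0.8 and over.

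Gene bodies followed the same order with a smaller shift. Protein-coding bodies cover 41.0% of the autosomal sequence between the first and last call and held 35.7% of calls at 0.5 U, then 37.9% at 1 U and 38.7% at 2 U, a log2 ratio of 0.11 (0.09 to 0.14), or 0.23 (0.18 to 0.28) at the common p limit. The sign differed with gene length. Bodies under 20 kb held 2.66%, 3.41% and 3.75% of calls (log2 ratio 0.49, 0.38 to 0.60), and bodies over 500 kb held 8.55%, 7.51% and 6.77% (log2 ratio -0.34, -0.41 to -0.26).

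Genes were then counted with 1000 bp on each side of the body. A call lay over 47.6% of the 21887 protein-coding genes at 0.5 U, 22.1% at 1 U and 16.7% at 2 U, and over 8.18% at all 3. Calls were found over 5445 genes at 0.5 U alone and over 582 at 2 U alone, and over 9869 at none of the amounts. Measured as calls per 100000 calls of the list, 14.1% of genes were higher at 2 U than at 0.5 U and 36.7% were lower. A gene with 1 call at 0.5 U and none at 2 U counts as lower. Of the genes, 10767 had no call at either of these amounts, and among those with calls 27.8% were higher at 2 U. These shares are the background for the gene groups that follow, where the percentage higher is given over members with calls.

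Very long neuronal genes had a smaller share of the deposited calls at 2 U than at 0.5 U. The 95 genes of this group, with a median length of 1055 kb, held 7598 calls at 0.5 U, then 1308 at 1 U and 672 at 2 U. The log2 ratio of calls per 100000 was -0.49 (-0.61 to -0.38) between 2 U and 0.5 U, beside 0.13 for all protein-coding genes. For all 227 genes over 500 kb, which overlap this group, it was -0.33 (-0.40 to -0.25). Length and kind of gene were not separated. At 2 U 18 of the 95 were higher (18.9%, beside 27.8% of all genes with calls) and 77 lower. Cntnap2, a neurexin-family adhesion gene, had 189, 28 and 17 calls, and Lsamp, a neuronal adhesion gene, had 182, 40 and 11. The log2 ratio of the group was -0.099 (-0.29 to 0.09) at the common p limit, an interval that includes 0. The genes with the most calls at 0.5 U and none at higher amounts included other neuronal genes. Gabra5, a GABA receptor subunit gene, had 26 calls at 0.5 U, the sodium-calcium exchanger gene Slc24a2 had 19, Cntnap3 had 18 and the glutamate receptor subunit gene Grin3a had 17. The kinase gene Tec had 20, and Adgb, Megf10 and Tinag had 18 each.

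Chemosensory receptor genes were also lower in share at 2 U in the deposited lists. The 1106 olfactory receptor genes held 437 calls at 0.5 U, then 73 at 1 U and 27 at 2 U, a log2 ratio of -1.01 (-1.57 to -0.45). At 2 U 19 genes were higher (7.42% of those with calls, beside 27.8% of all genes with calls) and 237 lower. The 237 are 21.4% of the group, beside 36.7% of all genes, and 850 members had no call at either amount. Start calls of the group went from 232 to 36 to 15, against the rise in share around starts in general. The olfactory group was at a log2 ratio of -0.013 (-0.99 to 0.97) at the common p limit, and no loss is seen there. The 353 vomeronasal receptor genes held 405, 92 and 34 calls (log2 ratio -0.57, -1.07 to -0.07), and their start calls went from 63 to 10 to 0. Vmn2r112 had 24, 4 and 0 calls and Vmn2r44 had 21, 9 and 5. The vomeronasal direction turned when only calls of 7 or more implied reads were used (log2 ratio 0.15, -0.64 to 0.95), and the value was -1.14 (-1.83 to -0.45) at the common p limit, so it depends on how calls are limited.

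**Figure D3:**
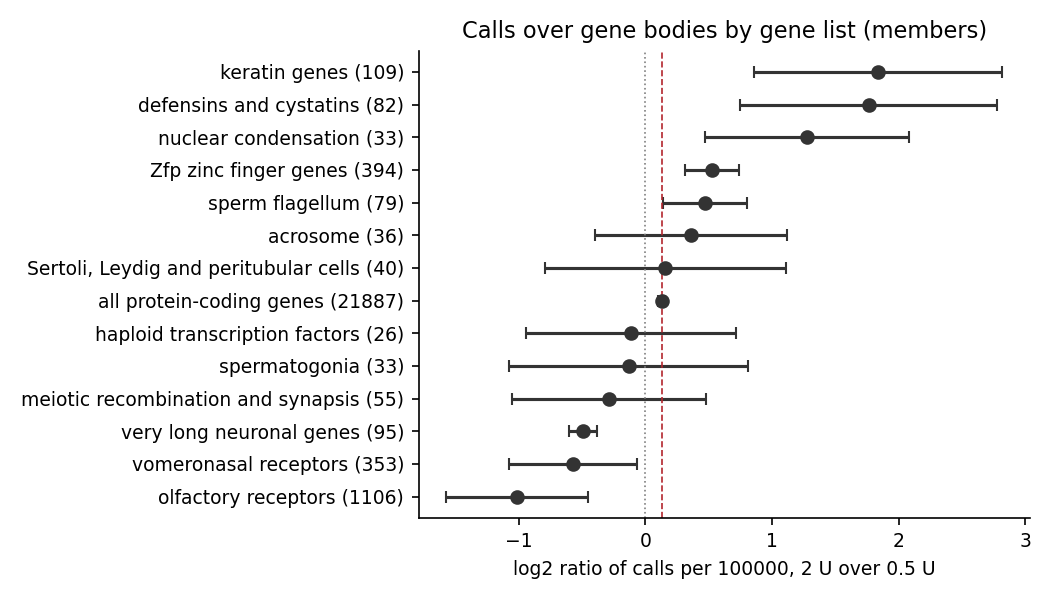
Log2 ratio of calls per 100000 over gene bodies, 2 U over 0.5 U (x axis), for gene lists with at least 20 calls at 0.5 U (y axis, members in brackets); bars are 95% counting intervals, the dotted line is 0 and the dashed line is the value of all protein-coding genes. Receptor and very long neuronal genes lie left of 0 at -1.01, -0.57 and -0.49, and keratin genes and defensins lie farthest right, with wide bars.

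Genes of sperm formation held few calls in most groups, and differences between the groups were not tested. The nuclear condensation group holds the transition proteins, protamines, histone variants and remodelling factors of the histone-to-protamine exchange. Its 33 members held 53 calls at 0.5 U, then 12 at 1 U and 16 at 2 U (log2 ratio 1.28, 0.47 to 2.08), with 5 members higher (50% of those with calls) and 5 lower. The members with the most calls were Camk4, a calcium-dependent kinase gene with 17, 7 and 6, and Cdyl, a chromodomain gene with 9, 3 and 5. Under the common p limit its log2 ratio was 1.82, with an interval (-0.30 to 3.94) that includes 0. Tnp1, Tnp2, Prm1, Prm2 and Kat2a, all under 8 kb, had no call at any amount. Brdt, the testis bromodomain protein that binds acetylated histones, had 3, 0 and 1 calls. Crem, the activator of many spermatid genes, had 4, 0 and 0, and Acr, the acrosomal protease acrosin, had 1, 0 and 0.

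The 79 flagellum genes held 486, 115 and 84 calls (log2 ratio 0.47, 0.14 to 0.81), with 23 higher (35.4% of those with calls) and 42 lower at 2 U. Dnah8 alone had 78, 25 and 23 of these, and without it the log2 ratio was 0.26 (-0.12 to 0.65). The interval of the whole group also includes 0 at the common p limit (log2 ratio 0.57, -0.077 to 1.21). Spag16, of the central pair of the axoneme, had 39, 4 and 11. The 36 acrosome genes held 100, 21 and 16 calls (log2 ratio 0.36, -0.40 to 1.12), with 7 higher (33.3% of those with calls) and 14 lower. Without Vps13b, a membrane trafficking gene with 38, 2 and 1 calls, that ratio was 0.96 (0.14 to 1.77). The 26 transcription factors of haploid cells held 113, 22 and 13 calls, of which Sox5 had 65, 8 and 12, and Rfx3, a regulator of ciliary genes, had 21, 4 and 0. The log2 ratio of this group was -0.12 (-0.94 to 0.72), and it rested on Sox5: without it, the value was -2.58 (-5.44 to 0.28).

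For genes of other germ and somatic cells the counts allow less to be said. The 55 genes of meiotic recombination and synapsis held 147, 35 and 15 calls (log2 ratio -0.29, -1.05 to 0.48), with 6 higher (17.1% of those with calls) and 29 lower. Mei4, needed for the DNA breaks that start recombination, had 20, 9 and 6 calls, and its partner Rec114 had 10, 5 and 0. The 33 spermatogonial genes held 88, 11 and 10 calls, and the stem cell regulator Zbtb16 had 18, 5 and 1. The 40 genes of Sertoli, Leydig and peritubular cells held 72, 22 and 10, with 4 higher (18.2% of those with calls) and 18 lower. All 3 intervals include 0.

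Among the groups whose interval lay above 0, zinc finger genes of the Zfp series held the most calls. The 394 genes held 1137, 302 and 204 calls (log2 ratio 0.53, 0.31 to 0.74), with 61 higher (29.6% of those with calls, near the 27.8% of all genes) and 145 lower. Zfp978, in the cluster on chromosome 4, had 148, 44 and 39 calls outside dense bins, and Zfp993 had 81, 39 and 17. At the common p limit the log2 ratio turned to -0.65 (-0.96 to -0.34). Small groups held few calls. The 82 defensin and cystatin genes had 26, 2 and 11 calls and the 109 keratin genes 27, 3 and 12, in each case with more at 2 U than at 1 U, and the relative gain of the defensin group between 0.5 U and 2 U was not seen at the common p limit (log2 ratio -0.045, -1.57 to 1.48). The 81 ribosomal protein genes had 18, 16 and 2, the 69 histone genes 13, 5 and 3, the 39 Hox genes 17, 4 and 2, and the 101 multicopy genes of X and Y 4, 7 and 2.

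Of the 1790 genes with a call at every amount, 580 rose in calls per 100000 at both steps. The lists shrink at each step, so a gene with the same number of calls at every amount counts as rising. The 580 genes therefore need not have gained calls in number. The leading ones were mainly predicted or multicopy genes, among them E030030I06Rik with 20, 15 and 19 calls, Gm32966 with 65, 39 and 29, D5Ertd579e with 26, 18 and 16 and Gm5458 with 17, 11 and 14. Others were Dnah8, Mroh2a with 42, 15 and 18, and Akap9, a centrosomal scaffold gene, with 17, 9 and 13. At the common p limit E030030I06Rik, Gm32966, D5Ertd579e, Gm5458 and Akap9 all turned, while Dnah8 kept its direction. Of the genes chosen by the naming rule that had a value there, 12 turned, 7 otherwise left their interval and 6 stayed inside it. Mroh2a turned when only calls of 7 or more implied reads were used (log2 ratio -0.43, with an interval that includes 0).

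Few positions of the deposited lists were held from amount to amount. Of the 0.5 U calls on assembled chromosomes, 4.55% had a 1 U call with its midpoint within 73 bp and 3.70% (3.62 to 3.79) a 2 U call. Seen from the smaller list, 21.6% (21.1 to 22.2) of the 2 U calls were found at 0.5 U and 16.5% at 1 U. At the common p limit 27.5% (26.8 to 28.2) of the remaining 0.5 U calls were found at 2 U and 16.0% (15.6 to 16.5) of 2 U calls at 0.5 U. Dense bins held 4807 of the 6539 matches between 0.5 U and 2 U calls. Outside them, 1.05% of 0.5 U calls were found at 2 U and 7.73% of 2 U calls at 0.5 U, while in dense bins 41.6% of 0.5 U calls were found at 2 U. Outside dense bins, 98.1% of 0.5 U calls, 93.0% of 1 U calls and 91.1% of 2 U calls had no match at either other amount.

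The number of implied reads went with whether a position came back. Outside dense bins, 0.49% of 0.5 U calls with 6 implied reads were found at 2 U, 0.98% of those with 7, 3.84% of those with 8 or 9 and 45.5% (42.5 to 48.5) of those with 10 or more. In the other direction, 4.36% of 2 U calls with 6 implied reads were found at 0.5 U and 93.6% of those with 10 or more. Among 1732 matched 0.5 U calls outside dense bins, 47.2% had more implied reads at 0.5 U, 30.4% had as many at 2 U and 22.3% had more at 2 U.

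**Figure D4:**
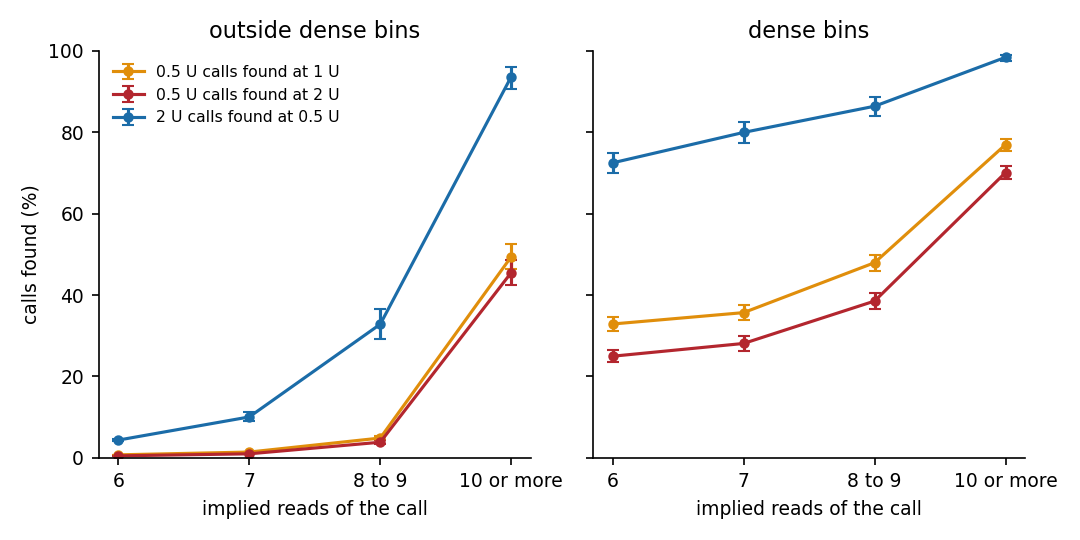
Share of calls found at another amount within 73 bp (y axis, percent) by implied reads of the call (x axis), outside dense bins (left) and inside them (right); bars are exact binomial 95% intervals. Outside dense bins the share of 0.5 U calls found at 2 U goes from 0.49% at 6 reads to 45.5% at 10 or more; inside them it is 28.1% at 7 reads.

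Distances between calls of different lists showed where matches lay. For 0.5 U against 2 U, outside dense bins, pairs of midpoints under 60 bp apart were 6.79-fold as frequent as pairs 500 to 1000 bp apart, and for 1 U against 2 U 11.5-fold. Beyond the overlap, pairs of 0.5 U and 2 U calls had their highest count between 100 and 300 bp in the 20 bp bin that starts at 160 bp, with 465 pairs. For 1 U against 2 U that bin started at 140 bp.

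Positions outside dense bins seen at all 3 amounts were gathered in few places. Counting overlapping calls separately, there were 763 such calls in the 2 U list, 3.71% of it. They fell in 174 windows of 100 kb, and 59 windows with at least 5 of them held 493, or 64.6%. Of the 763, 36.8% lay within 50 kb of a dense bin. The fullest windows held 19 each, at chr14:19500001-19600000 with Gm5458 and at chr2:181900001-182000000 with Gm14496. The window chr10:22100001-22200000, with E030030I06Rik and the NKG2D ligand gene Raet1e, held 17. The window chr19:61200001-61300000, with the cytokine receptor gene Csf2ra, held 15 of its 15 calls at 2 U. By gene content, 0.60% of 0.5 U calls in bins with no start and 0.46% in bins with 1 to 5 starts were found at 2 U. With 6 to 20 starts it was 1.83%, and with over 20 it was 1.05%. Shares in gene bodies and outside them were near each other, at 0.97% and 1.05%.

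Dense bins kept more of their calls than the rest of the genome. They are defined by their calls at any amount, and the 0.5 U list is the longest. A bin that is dense at 0.5 U alone has fewer calls at 2 U by definition, so the numbers are a description. The 246 dense bins held 13663 calls at 0.5 U, then 7776 at 1 U and 6333 at 2 U, or 7.63%, 18.7% and 23.4% of the lists. They join into 91 loci when gaps of up to 50 kb are bridged. In number, 88 loci had more calls at 0.5 U than at 2 U, 2 had more at 2 U and 1 had as many, and as a share of the list 75 gained and 16 fell. At the common p limit the log2 ratio of the share in dense bins, 1.62 as deposited, turned to -0.95 (-0.99 to -0.92).

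The unplaced contig JH584304 held 1831 calls at 0.5 U, then 1717 at 1 U and 1655 at 2 U. The locus chr11:3120001-3200000, with Sfi1, a centrosomal gene with repeated copies, and Pisd-ps1, had 847, 730 and 682 calls, and chr9:3000001-3040000, at the centromeric end of its chromosome, had 302, 263 and 246. At chr7:38170001-38200000, with 1600014C10Rik, there were 383, 308 and 257. Gene-cluster loci fell further. The locus chr13:12760001-12970000, with the prolactin-family gene Prl2c3, had 1712, 723 and 437 calls. The zinc finger cluster at chr4:147330001-147590000, with Zfp978, Zfp988, Zfp982 and Zfp985, had 964, 424 and 339, and chr8:20260001-20420000 had 562, 295 and 204.

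A few dense loci emptied, and they were picked after their values were seen. The 4 loci without a call at 2 U were dense through their 0.5 U calls alone, so fewer calls at higher amounts followed from that choice. At chr1:24610001-24620000, with Gm10222 and Gm10925, there were 113 calls at 0.5 U, then 4 at 1 U and 0 at 2 U. Of the 113, 96 had 10 or more implied reads, so most were not calls at the minimum. Whether the reads placed at this locus came from it or from similar sequence elsewhere was not tested. At chr16:59360001-59370000, in the olfactory receptor gene Olfr209, there were 23, 5 and 0. At chr3:106120001-106130000, which overlaps the chitinase gene Chia1, and at chr12:88250001-88260000 there were 21, 1 and 0 at each.

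Among chromosomes, X and Y departed from the autosomes in the deposited lists. A spermatid carries either an X or a Y chromosome. Outside dense bins X had 698 calls at 0.5 U, then 180 at 1 U and 145 at 2 U, or 0.423%, 0.536% and 0.705% of calls on assembled chromosomes. The log2 ratio of its share between 2 U and 0.5 U was 0.74 (0.48 to 0.99), whereas the autosomes lay between -0.26 on chromosome 3 and 0.20 on chromosome 7. Single loci weigh on so few calls: the bin chrX:31000001-32000000, with Btbd35f and Spin2 family genes, had 65, 18 and 10 calls, and chrX:76000001-77000000, with Cldn34 family genes, had 15, 11 and 10. For X calls found at no other amount the log2 ratio was 0.57 (0.28 to 0.86). At the common p limit it was -0.069 (-0.48 to 0.35), so the departure is not seen there. Y had 58, 66 and 45 calls outside dense bins, a log2 ratio of 2.64 (2.08 to 3.20) between 2 U and 0.5 U, the highest of all chromosomes. Single windows weigh on Y even more. Of its calls, chrY:90700001-90800000 held 16, 24 and 18, chrY:90800001-90900000 held 10, 13 and 15, and chrY:200001-300000 held 12, 8 and 9. The value thus describes a few places and not the whole chromosome. Held to the common p limit, Y had 18, 31 and 45 calls and a log2 ratio of 0.14 (-0.65 to 0.93).

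**Figure D5:**
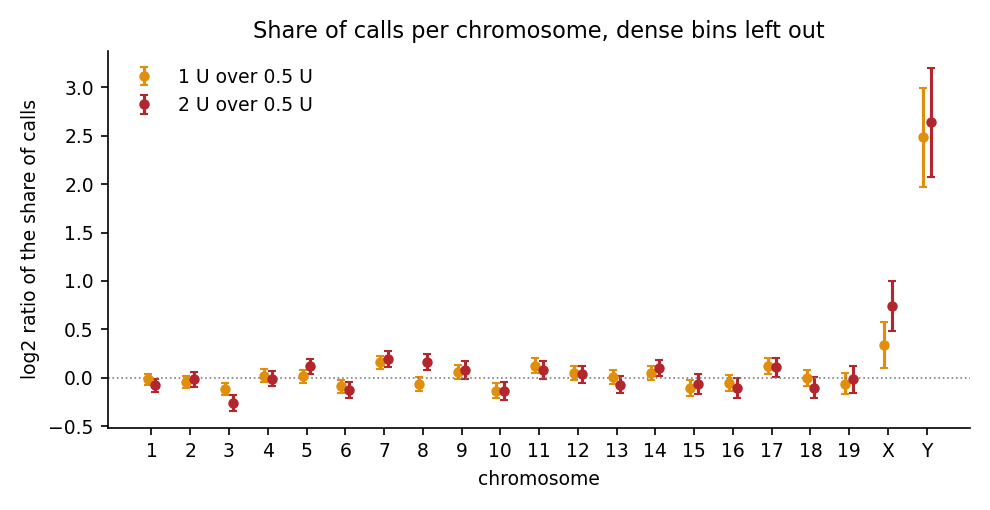
Log2 ratio of each chromosome's share of calls (y axis) at 1 U and 2 U over 0.5 U, by chromosome (x axis), without dense bins; bars are 95% counting intervals. The autosomes lie between -0.26 and 0.20 at 2 U, X is at 0.74 and Y, with the fewest calls, at 2.64.

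The centromere-side ends of the autosomes gained a little. The first 5 Mb of called sequence held 4.17% of autosomal calls at 0.5 U, then 5.02% at 1 U and 5.13% at 2 U (log2 ratio 0.30, 0.21 to 0.39). The last 5 Mb held 3.87%, 4.24% and 4.20% (log2 ratio 0.12, 0.02 to 0.22).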

How the data were processed

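MNase-seq lists of nucleosome calls were analysed for 3 groups of 2 round spermatid samples. Per the series' design text, the authors made each list from both samples of a group. Alignment with STAR 2.5.2a to GRCm38/mm10 is named in the submitters' processing notes. What program called nucleosomes, and at what limit, is not given in the sources used here. Each line holds an interval of 140 bp and a p-value deposited by the authors, and no read count. Implied reads were obtained by matching the 8 largest p-values of a list to Poisson upper tails (largest difference of natural logarithms 1.06e-10), and between 172 and 198 calls per list with p-values under 1e-300 were given the next count. The number of sequenced reads is unknown.

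Calls were reduced to midpoints. Unless stated, dense bins (10 kb with over 20 calls at any amount) and unplaced contigs were left out. Genes (21887 protein-coding on 21 chromosomes) came from a RefSeq table of GRCm38.p6. Gene starts came with strand from a RefSeq promoter table, which held starts of 17492 protein-coding genes. Starts on chromosome 18 were not analysed here. Shares have exact binomial (Clopper-Pearson) 95% intervals, profiles exact Poisson intervals, and log2 ratios normal intervals from the counts. With 1 pooled list for each amount no test was possible and no p-value was computed. The scripts were tested on simulated data.

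Genes were named by rule: the nuclear exchange and acetylation genes listed first in the design, the 10 with calls at all amounts and the largest stepwise rise, the 10 with most calls at 0.5 U alone, the 10 with start calls at all amounts, the 2 members of each list with most calls, and the dense loci with the most calls or the largest change. Names outside the rule are said to be chosen after their values were seen; the start genes called at 1 U and 2 U alone, the printed promoters and the windows of recurring calls were also chosen that way. The members and lists were chosen with earlier results of these data known. The meiotic lists were not used here. Alternatives were stricter calls, merged calls, other windows, other bins and, chosen after seeing the data, a common p limit and a 50 kb margin beside dense bins. Python 3.11.15, numpy 2.4.6, pandas 2.3.3, scipy 1.17.1 and matplotlib 3.10.9 were used.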

Additional observations from a re-analysis of the deposited data

How the results depend on the processing

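No paired analysis was possible because each list pools both replicates, and for the same reason no replicate could be left out. Log2 ratios below compare shares of calls at 2 U with 0.5 U. The fall in bins with no gene start and the rise in gene-rich bins kept their direction under every alternative run. With calls of 7 or more implied reads (8 or more in brackets), bins with no start were at -0.54 (-0.81), gene-rich bins at 0.40 (0.44), X at 1.30 (1.48) and dense bins at 1.48 (0.77). Gene starts were at 0.85 (0.49, interval -0.096 to 1.08). The share of 0.5 U calls found at 2 U was 7.78% (18.9%) and that of 2 U calls found at 0.5 U 46.0% (73.9%). The list size was 28.7% with 8 or more, and 23.3% for 1 U. With overlapping calls merged, the kept shares were 1.08% and 7.92%, X was at 0.44 and dense bins at 1.86. With dense bins left out of the kept shares they were 1.05% and 7.73%. With dense bins put in, bins with no start were at -0.52 and gene-rich bins at 0.14. Matching within 20 bp gave 2.58% and 17.3%, and a wider limit of 1 nucleosome length each way 4.61% and 23.9%. Leaving out 50 kb beside dense bins gave 0.73% and 5.59%. With genes of every kind, bins with no start were at -0.56 and bodies at 0.15. Starts were at 0.97 within 500 bp and 0.41 within 2000 bp, and dense bins defined by 2 U alone at 1.93.

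At the common p limit, chosen after seeing the data, the list size was 161%, the kept shares 27.5% and 16.0%, bins with no start -0.38, gene-rich bins 0.35, X -0.069, bodies 0.23, starts 0.17 and dense bins -0.95. Fewer 0.5 U calls enter under it; a further cause was not tested. It also turned Zfp genes (-0.65), defensins and cystatins (-0.045), Gm32966 (-0.91), Zfp978 (-1.07), E030030I06Rik (-1.18), Gm32584 (-1.43), Gm3248 (-1.11), D5Ertd579e (-1.43), Gm5458 (-0.96), Akap9 (-0.29), Gm36079 (-0.53), Naip6 (-0.18), Gm8126 (-0.33) and Zfp600 (-0.18). Calls of 7 or more reads turned vomeronasal receptors (0.15), keratin genes (-0.71) and Mroh2a (-0.43). Calls of 8 or more turned vomeronasal receptors (0.69), the flagellum group (-1.49) and defensins and cystatins (-0.31), all on few calls. With 66.0% to 69.5% of calls at the minimum, single genes rest on 1 read more or fewer.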

Other observations

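Besides JH584304, several unplaced contigs held about as many calls at 2 U as at 0.5 U. GL456392 had 64 calls at 0.5 U, then 58 at 1 U and 61 at 2 U, GL456389 had 18, 17 and 19, and GL456383 had 36, 33 and 32. Others lost most of their calls: GL456368 had 85, 22 and 11, and GL456366 had 10, 3 and 0. Contigs together held 2569, 2139 and 1983 calls, or 1.43%, 5.14% and 7.32% of the lists.

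The calls of the ribosomal protein group came from few genes: Rps6 had 0 calls at 0.5 U, then 4 at 1 U and 0 at 2 U, all within 1000 bp of its start, and Rpl4 had 5 at 0.5 U and none at the higher amounts.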
